A study of Mus musculus with 19 samples.

Results

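Angptl4, Angptl8, Lipc, Lipg, Apoa5, Apoc2, Apoc3 and Lmf1 encode secreted inhibitors, lipases, apolipoprotein cofactors and a lipase chaperone that set how fast triglyceride is cleared from the blood. They were taken by symbol from the liver count table, 8 genes of 55836 listed. All 8 passed the filter on low counts that left 13597 genes for testing. The study asked how polyethylene (PE) microplastic particles and a metabolic diet, alone and together, alter the liver of mice. Poly(A) RNA from the livers of 19 male C57BL/6 mice labelled WT was sequenced, 1 library per mouse.

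The 4 groups were control diet with vehicle (CD + Veh, n = 4), control diet with PE (CD + PE, n = 5), metabolic diet with vehicle (MD + Veh, n = 5) and metabolic diet with PE (MD + PE, n = 5). Mice were 8 weeks old at the start, and diet and gavage ran together for 8 weeks. CD supplied 10 kcal% fat and matching sucrose, and MD supplied fat at 40 kcal%, fructose at 20 kcal% and cholesterol at 2%. PE mice received 2 mg of particles each day by oral gavage in water with Tween 20, and vehicle mice received that liquid without particles. Mice of a group shared housing, so that cage and group cannot be told apart.

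Lipoprotein lipase, anchored on capillary walls in muscle and fat, splits the triglyceride carried by very low density lipoproteins and chylomicrons. The liver contributes many of the circulating factors that tune it. ANGPTL4 and ANGPTL8 hold the enzyme back, APOC3 slows lipolysis and the uptake of remnants, APOC2 is its obligate activator and APOA5 promotes its action, while LMF1 folds the lipases in the endoplasmic reticulum. In the liver, Angptl4 is classically a gene of fasting and of the nuclear receptor PPAR alpha, whereas Angptl8 is a gene of feeding and insulin.

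Angptl8 and Apoc3 were the members called when PE was compared with vehicle, the former on CD and the latter on MD, and their proximal promoters are shown for that reason. Each run is the 250 bases before the start of the canonical transcript on GRCm39 (GENCODE vM39), read 5′ to 3′ on the strand of the gene. Angptl8 starts within Dock6, a gene on the opposite strand with which it shares 0 of 948 exonic bases, and its window is chr9:21746536-21746785 (+). The Apoc3 window is chr9:46146559-46146808 (-), and capitals mark the motifs that were searched, AGGTCA (the nuclear receptor half-site) and CCAAT (NF-Y), on both strands.
Angptl8: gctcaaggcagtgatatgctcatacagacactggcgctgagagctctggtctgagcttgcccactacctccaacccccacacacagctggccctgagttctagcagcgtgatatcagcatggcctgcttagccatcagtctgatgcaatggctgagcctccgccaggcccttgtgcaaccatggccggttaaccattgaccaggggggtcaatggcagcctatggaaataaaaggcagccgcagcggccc
Apoc3: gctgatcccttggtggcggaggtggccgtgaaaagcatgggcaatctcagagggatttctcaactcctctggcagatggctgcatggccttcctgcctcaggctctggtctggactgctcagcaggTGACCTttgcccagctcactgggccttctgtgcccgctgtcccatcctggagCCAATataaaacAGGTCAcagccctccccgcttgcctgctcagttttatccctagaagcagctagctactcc
Apoc3 held AGGTCA at 124 to 119 bases before the start on the opposite strand and at 60 to 55 bases on its own strand, with CCAAT at 72 to 68 bases. Angptl8 held neither of these motifs nor CACGTG (the E-box). Over 21770 promoters of this length, 13.1% held AGGTCA, 36.5% CCAAT and 6.26% CACGTG. Among the 8 genes, AGGTCA was found in Lipc and Apoc3, CCAAT in Lipc, Lipg and Apoc3, and CACGTG in Apoa5.

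Depth ranged from 10398820 to 15456729 counts per library, and every PE library was shallower than every vehicle library. The vehicle libraries carried lower library numbers than all PE libraries, and therefore PE and library order cannot be told apart. A second division, between libraries 45 and 46, was set for the fits and is given by no label. MD + Veh replicates 1 to 3 lay on the side of CD + Veh and replicates 4 and 5 on the side of the PE libraries. Every other group lay wholly on 1 side, so as a covariate the division is estimated from MD + Veh alone. Hepatocyte markers summed to between 64738 and 93522 CPM in the CD groups and between 49793 and 67877 CPM in the MD groups (counts divided by library size in units of 1000000, after scaling by trimmed mean of M values), and all 6 of them had counts in every group. Among vehicle mice the diets did not overlap in the hepatocyte sum (72363 to 86926 CPM in CD + Veh, 51466 to 65340 CPM in MD + Veh). They did not overlap in the Kupffer cell sum either (81.3 to 146 CPM and 169 to 263 CPM). The hepatocyte sum was mostly Alb, which was lower in MD + Veh without overlap, as was Apoa1. Cyp2e1 was higher without overlap (3069 to 4546 CPM in CD + Veh, 4703 to 6047 CPM in MD + Veh), and Cps1, Serpina1c and Tat overlapped. Among Kupffer cell markers, Cd5l, Vsig4 and Adgre1 were higher without overlap, and Clec4f, Timd4 and Marco overlapped. The part of these differences in the diet comparisons below was not tested. Skeletal muscle markers reached 2512 CPM in MD + Veh replicate 1 and 361 CPM in CD + PE replicate 1, and Kupffer cell markers reached 614 CPM in CD + PE replicate 2. Calls that change when these 3 libraries are left out are given with and without them. Intestinal epithelium markers summed to 196 CPM in MD + PE replicate 2 and to between 112 and 129 CPM in the rest of that group. Vil1, among them, was at 22.7 CPM in that library and at most 0.645 CPM in any other. That library stayed in the fits without the 3, and the part of intestine in the levels of the members was not tested.

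**Figure D1:**
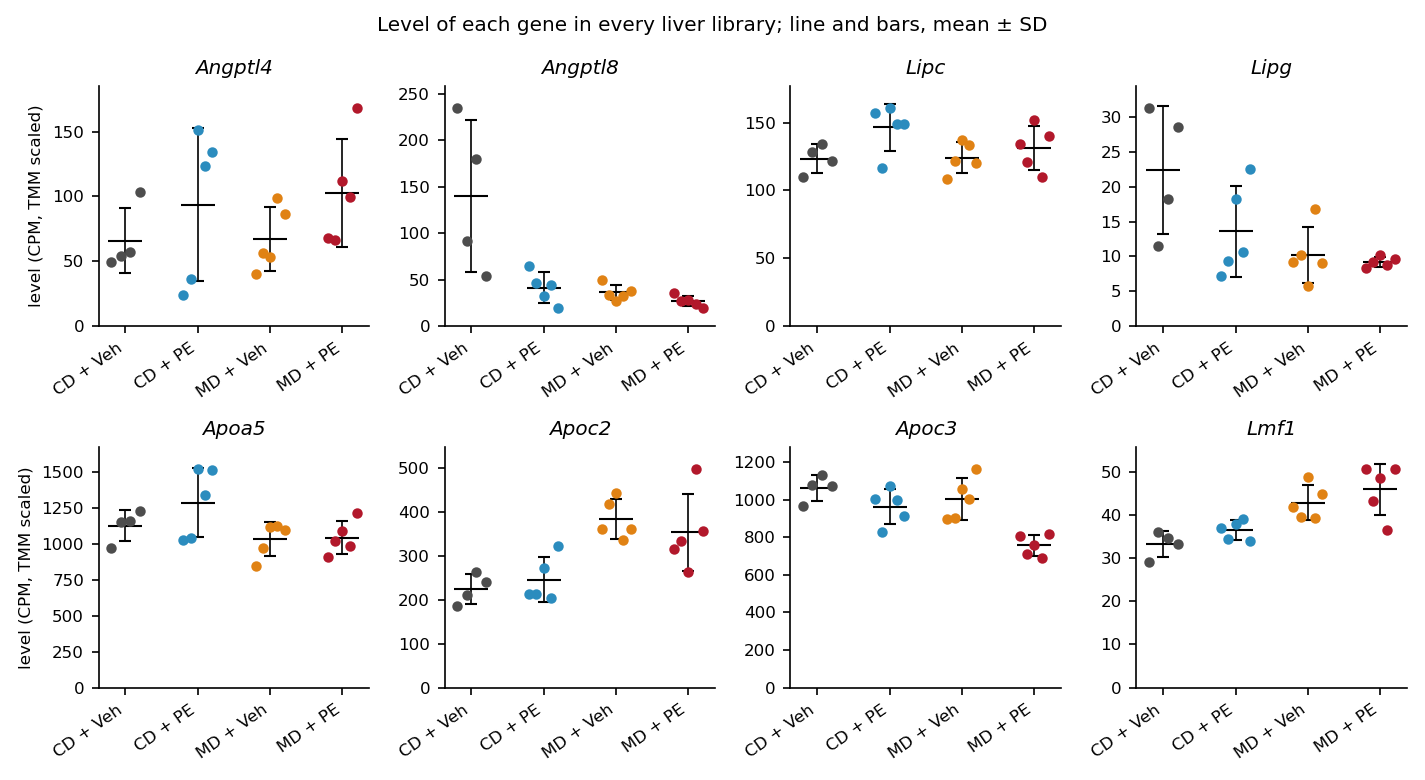
Level of each gene in CPM (vertical axis, linear from 0) in every library of the 4 groups (horizontal axis); each point is 1 mouse, and the line and bars are the mean and SD. Angptl8 is high and scattered in CD + Veh, from 54.3 to 235 CPM, and Apoc3 in MD + PE lies below all other groups, from 689 to 818 CPM.

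Per kilobase of mean transcript length, Apoa5 and Apoc3 had the highest mean levels of the 8 genes in each of the 4 groups. Lipg had the lowest, while places between them changed with the group. The order depended on the length used. With the longest transcript instead, Apoc2 lay above Apoa5 in MD + Veh (394 against 383 CPM per kilobase). It also lay above Apoc3 in MD + PE (362 against 311), and Lmf1 lay below Lipg in CD + Veh (4.27 against 5.92). Divided by the mean transcript length, the mean in CD + Veh was 856 CPM per kilobase for Apoc3, 845 for Apoa5, 300.1 for Apoc2, 158 for Angptl8, 124 for Lipc, 32.6 for Angptl4, 12.3 for Lmf1 and 7.03 for Lipg. Angptl8 thus lay above Lipc in CD + Veh, but in MD + PE it was at 30.4 CPM per kilobase, below Lipc at 132 and Angptl4 at 50.9. Apoa5 lay above Apoc3 in both PE groups (965 against 774 in CD + PE, 782 against 609 in MD + PE) and below it in MD + Veh (774 against 808). Over the 19 libraries together Apoa5 and Apoc3 differed by less than the SD of either (136 and 114 CPM per kilobase). Angptl8 and Angptl4 differed by less than the SD of Angptl8 (63.6) but by more than that of Angptl4 (20.3). These SDs span the 4 groups and so hold differences between groups.

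Mice of 1 group differed far more in the 3 genes Angptl4, Angptl8 and Lipg than in the others. The within-group SD of log2 CPM was 0.78 for Angptl4, 0.59 for Angptl8 and 0.54 for Lipg, against a median of 0.22 over all genes tested. Angptl4 lay at the 94.6th percentile of that spread. Apoc3, Lmf1 and Lipc varied least, at 0.13, 0.14 and 0.16.

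Angptl8 was the only one of the 8 genes called in CD + PE against CD + Veh, where it was 3.38-fold lower. Here and in the other comparisons a call required both an adjusted p (Benjamini-Hochberg over all genes, edgeR's quasi-likelihood test) under 0.05 and a log2 fold change of 0.38 or more in either direction. Of all genes tested 2.92% were called in this comparison, and the median absolute log2 fold change was 0.22 over the 8 genes and 0.16 over all. In CD + Veh the level of Angptl8 was 235, 92.0, 180 and 54.3 CPM (mean 140 ± 82.2, SD, n = 4). In CD + PE it was 64.7, 46.05, 32.5, 44.5 and 19.4 CPM (mean 41.4 ± 16.9, SD, n = 5). Groups overlapped, because replicate 4 of CD + Veh lay below replicate 1 of CD + PE.

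The log2 fold change of Angptl8 in CD + PE was -1.76 (SE 0.34, adjusted p = 0.00729). It was -1.38 with an adjusted p of 0.0379 without CD + Veh replicate 1, the library with the highest level. The call was lost when only the 2 groups were fitted (log2 fold change -1.74, adjusted p = 0.0523). It was also lost with the division of library numbers as a covariate (-1.71, adjusted p = 0.24), a fit in which 37 of the 13597 genes were called. The division coincided with PE in these 2 groups, so this fit rested on MD + Veh to separate the division from PE. In bulk tissue, fewer cells of a type and less RNA per cell cannot be told apart.

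The other members were not called with PE on CD. Angptl4, whose protein inactivates lipoprotein lipase during fasting, gave 0.51 on the log2 scale (SE 0.44, adjusted p = 0.623). Its CD + PE libraries fell into a low pair and a high trio, with 23.9 and 36.2 CPM in replicates 1 and 2, and 151, 123 and 134 CPM in replicates 3 to 5. The low pair are the libraries rich in muscle and Kupffer cell markers. Without them and MD + Veh replicate 1 the log2 fold change was 1.05 (adjusted p = 0.0804), still not called. In CD + Veh the gene stood at 49.2, 54.3, 56.97 and 103 CPM, between both sets.

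Lipc, hepatic lipase, which trims remnants and high density lipoproteins in the liver sinusoid, stood at 123 ± 10.6 CPM in CD + Veh (SD, n = 4) and 147 ± 17.4 CPM in CD + PE (SD, n = 5). That difference, 0.25 on the log2 scale (SE 0.10), had an unadjusted p of 0.0268 and an adjusted p of 0.205. Lipg, endothelial lipase, which acts chiefly on the phospholipids of high density lipoproteins, gave -0.73 (SE 0.32, adjusted p = 0.237). Apoa5, Apoc2, Apoc3 and Lmf1 had log2 fold changes between -0.14 and 0.19, with adjusted p from 0.456 to 0.765. Without the same 3 libraries Lipg gave -0.38 (adjusted p = 0.609) and Apoa5 0.38 (adjusted p = 0.0679).

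On MD, PE was followed by a call in Apoc3 alone, and Apoc3 was not called on CD. Apoc3 was 1.33-fold lower in MD + PE than in MD + Veh, and 1.08% of all genes were called in this comparison. The median absolute log2 fold change was 0.13 over the 8 genes and 0.14 over all. The level in MD + Veh was 896, 903, 1060, 1002 and 1162 CPM. In MD + PE it was 808, 712, 761, 689 and 818 CPM. Every MD + PE library lay below every MD + Veh library, and below every CD library as well.

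The log2 fold change of Apoc3 in MD + PE against MD + Veh was -0.41 (SE 0.087, adjusted p = 0.0239). The value sits close to the fold limit, and the call was lost in 5 of the 19 fits that left out 1 library. These were the fits without MD + Veh replicates 3 or 5 and without MD + PE replicates 2, 3 or 4, in which the log2 fold change ran from -0.41 to -0.35 and the adjusted p from 0.0421 to 0.0663. With libraries 46 to 57 only, the log2 fold change was -0.50 with an adjusted p of 0.165, and with the 2 groups alone it was -0.39 with an adjusted p of 0.0833. With the division of library numbers as a covariate it was -0.51 with an adjusted p of 0.0592.

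Angptl8, already low on MD, stood at 49.8, 33.3, 27.2, 32.8 and 38.2 CPM in MD + Veh and at 35.3, 27.4, 28.5, 23.7 and 20.02 CPM in MD + PE. The groups overlapped, and the log2 fold change was -0.43 (SE 0.33, adjusted p = 0.583). Angptl4 gave 0.61 (SE 0.42, adjusted p = 0.522), from a mean of 67.2 ± 24.5 CPM in MD + Veh to 103 ± 41.6 CPM in MD + PE (SD, n = 5 each). The remaining 5 members lay between -0.15 and 0.10 on the log2 scale.

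The 2 PE effects were set against each other by the interaction of PE and diet. By edgeR's quasi-likelihood test 0 of the 8 genes were called, 1 had an unadjusted p below 0.05, and 0 were called by DESeq2. Of all genes 0.00735% were called by edgeR and 0.526% by DESeq2. The interaction of Angptl8 was 1.33 on the log2 scale (SE 0.48, adjusted p = 0.404), so that a difference of its PE effect between diets did not pass the test. For Apoc3 it was -0.26 (SE 0.13, adjusted p = 0.579).

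**Figure D2:**
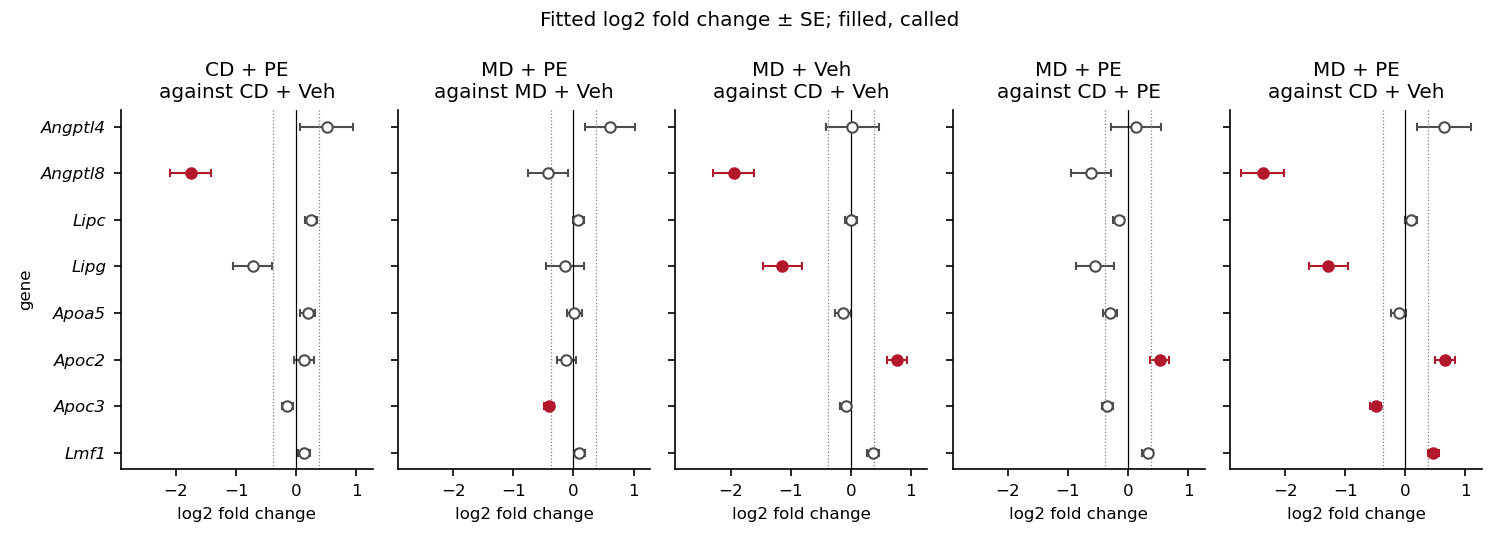
Fitted log2 fold change (horizontal axis) with its SE for the 8 genes (vertical axis) in the 5 pairwise comparisons, 1 panel each; filled red points were called and dotted lines mark the fold limit of 0.38. Angptl8 is filled in 3 panels, at -1.76, -1.95 and -2.38, and Angptl4 is open in all 5.

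The diet itself was followed by calls in 3 of the 8 genes among vehicle mice, with Angptl8 and Lipg lower and Apoc2 higher. Of all genes 10.4% were called in MD + Veh against CD + Veh. The median absolute log2 fold change was 0.25 over the 8 genes and 0.21 over all. Angptl8 was 3.87-fold lower in MD + Veh (log2 fold change -1.95, SE 0.34, adjusted p = 8e-04), and its MD + Veh libraries all lay below those of CD + Veh. The call held in all 19 fits that left out 1 library, with a largest adjusted p of 0.00513.

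Lipg (chr18:75072393-75094339 on GRCm39, minus strand) was 2.20-fold lower in MD + Veh. Its level in CD + Veh was 31.3, 11.5, 18.3 and 28.6 CPM. In MD + Veh it was 9.19, 10.2, 5.80, 16.9 and 9.12 CPM. Replicate 4 of MD + Veh lay within the range of CD + Veh, while the other four lay below it. The log2 fold change was -1.14 (SE 0.32, adjusted p = 0.0228). It lost its call without CD + Veh replicate 1 (adjusted p = 0.0954), CD + Veh replicate 4 (0.0844) or MD + Veh replicate 3 (0.0595).

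Clock transcripts moved with this comparison as well. A score of Bmal1, Clock and Npas2 minus Dbp, Tef, Hlf, Per3, Nr1d1, Nr1d2 and Ciart in mean log2 CPM lay between -5.04 and -3.78 in CD + Veh and between -2.49 and -0.18 in MD + Veh. The CD + PE libraries ranged from -3.41 to 0.40, and the MD + PE libraries from -2.28 to -0.26, so no library of another group reached the CD + Veh range. With the score as a covariate Lipg gave -0.52 in MD + Veh (adjusted p = 0.63) and -0.69 in MD + PE against CD + Veh (adjusted p = 0.401). Apoc2 gave 0.84 in MD + Veh (adjusted p = 0.0864). Angptl8 kept its call in both comparisons under that fit.

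Apoc2 was 1.71-fold higher in MD + Veh than in CD + Veh. The level was 185, 211, 262 and 240 CPM in CD + Veh and 361, 416, 444, 335 and 362 CPM in MD + Veh, with no overlap. The log2 fold change was 0.77 (SE 0.17, adjusted p = 0.0039). Apoc2 (chr7:19405504-19411877, minus strand) shares 646 of its 1552 exonic bases, or 41.6%, with Apoc2l, a readthrough gene that runs on through Apoc2 and Apoc4. How Salmon divided reads between them could therefore alter the value. Apoc2l itself was at 20.1 to 32.9 CPM in CD + Veh and 27.4 to 45.8 CPM in MD + Veh (log2 fold change 0.43, adjusted p = 0.165). With both genes summed the log2 fold change was 0.74 (adjusted p = 0.00522). With Apoc4 added as well, the sum gave 0.35 (adjusted p = 0.0343) and lay under the fold limit. Apoc4 by itself was at 336 to 416 CPM in CD + Veh and 365 to 431 CPM in MD + Veh (log2 fold change 0.02). This larger sum is therefore not a value for Apoc2 alone.

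Lmf1, the lipase maturation factor, stood just outside the call in MD + Veh. It was at 29.0, 36.0, 34.6 and 33.3 CPM in CD + Veh and at 41.9, 39.5, 48.8, 39.3 and 44.8 CPM in MD + Veh, without overlap. The adjusted p was 0.0153, but the log2 fold change of 0.37 (SE 0.097) missed the limit of 0.38. It was past that limit in 7 of the 19 fits without 1 library, and was called at 0.39 (adjusted p = 0.0217) without the 3 marker-rich libraries. Angptl4 (0.03), Lipc (0.01), Apoa5 (-0.13) and Apoc3 (-0.08) were not called, with adjusted p from 0.55 to 0.977.

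Among PE mice, MD was followed by a call in Apoc2 alone, and 4.61% of all genes were called in MD + PE against CD + PE. The median absolute log2 fold change was 0.34 over the 8 genes and 0.17 over all. Apoc2 was at 212, 213, 273, 205 and 323 CPM in CD + PE and at 316, 333, 264, 496 and 357 CPM in MD + PE. The groups overlapped, and the log2 fold change was 0.53 (SE 0.16, adjusted p = 0.0458). This call was lost in 13 of the 19 fits without 1 library, CD + Veh and MD + Veh libraries included (adjusted p up to 0.124). It was also lost with Apoc2l summed in (0.50, adjusted p = 0.0559) and without the 3 libraries rich in muscle or Kupffer cell markers (0.42, adjusted p = 0.184).

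A pair of members passed the test of MD + PE against CD + PE but not the fold limit. Apoc3 gave -0.35 (SE 0.087, adjusted p = 0.0204), with no overlap between groups, and Lmf1 gave 0.33 (SE 0.091, adjusted p = 0.0341), with overlap. Apoa5 stood at 1028, 1043, 1519, 1338 and 1513 CPM in CD + PE and at 912, 1017, 1091, 987 and 1212 CPM in MD + PE (-0.30, SE 0.12, adjusted p = 0.142). Without the 3 libraries, which hold the lowest pair of CD + PE values, Apoa5 was called lower in MD + PE (-0.46, adjusted p = 0.0104). Angptl8 gave -0.62 (SE 0.33, adjusted p = 0.291) and Lipg -0.56 (SE 0.32, adjusted p = 0.322).

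The combined exposure, MD + PE against CD + Veh, was followed by calls in 5 of the 8 genes, where 14.6% of all genes were called. Angptl8, Lipg and Apoc3 were lower and Apoc2 and Lmf1 higher. The groups did not overlap in these genes, which the call had already picked. The share of all genes without overlap was not counted. The median absolute log2 fold change was 0.57 over the 8 genes and 0.23 over all. Angptl8 was 5.198-fold lower (log2 fold change -2.38, SE 0.35, adjusted p = 7.99e-05) and Lipg 2.44-fold lower (-1.28, SE 0.32, adjusted p = 0.00822). Apoc3 was 1.40-fold lower (-0.49, SE 0.092, adjusted p = 0.000798). Apoc2 was 1.57-fold higher (0.65, SE 0.17, adjusted p = 0.00874) and Lmf1 1.38-fold higher (0.47, SE 0.097, adjusted p = 0.00195).

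All 5 calls held when any 1 library was left out. The 5 were fewer under 2 covariates, 3 with the division of library numbers and 3 with the clock score, beside 6.84% and 9.09% of all genes. The first lost Apoc2 (0.88, adjusted p = 0.0654) and Lmf1 (0.51, adjusted p = 0.0701). The second lost Lipg, Apoc2 (0.72, adjusted p = 0.0768) and Apoc3 (-0.33, adjusted p = 0.111), and Angptl4 entered the calls at 1.95 (adjusted p = 0.0239) where it had been 0.64 (SE 0.45, adjusted p = 0.338). The sum of Apoc2, Apoc2l and Apoc4 gave 0.18 (adjusted p = 0.25). Apoc4 by itself gave -0.17 in this comparison, and its mean in CD + Veh was 383 CPM, where that of Apoc2 was 224 CPM. The value of the sum is therefore not one for Apoc2 alone. This comparison shares its CD + Veh libraries with those of CD + PE and MD + Veh, so the 3 sets of values are not independent.

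Lipg had its narrowest spread in MD + PE. Its levels there were 8.37, 9.18, 10.2, 8.79 and 9.61 CPM, a coefficient of variation of 7.60%. In the other groups the coefficient was 39.8% to 47.8%. The CD + PE libraries lay at 7.22, 9.38, 18.2, 10.6 and 22.6 CPM, so that the group overlapped each of the other 3 groups.

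**Figure D3:**
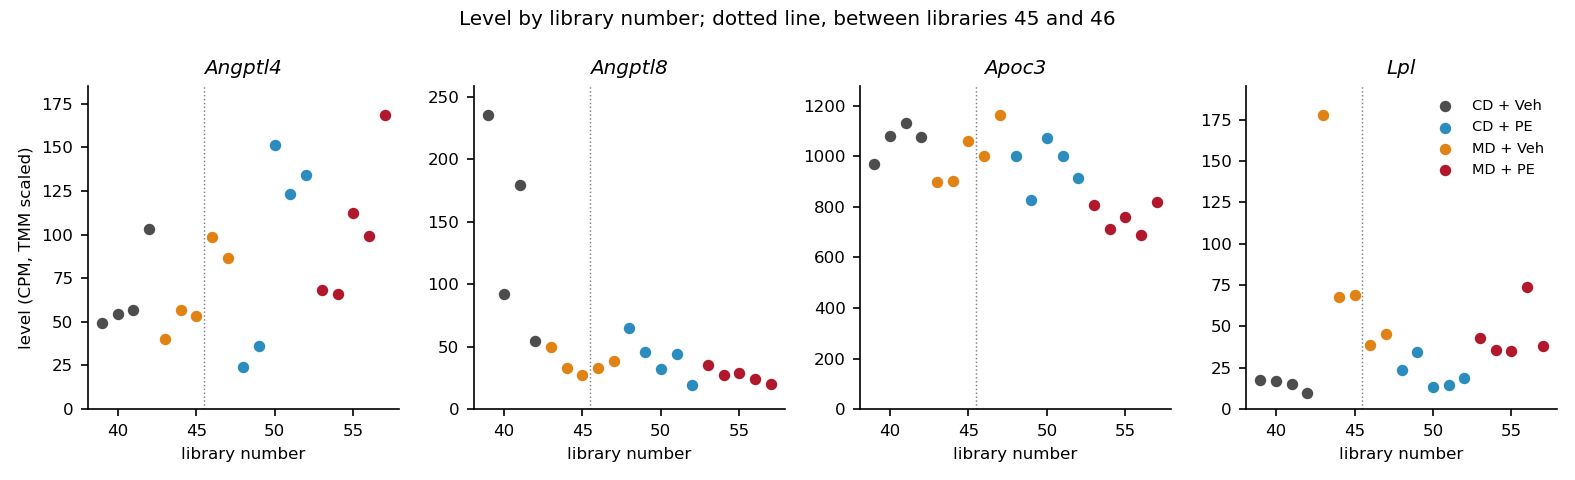
Level in CPM (vertical axis, linear from 0) of Angptl4, Angptl8, Apoc3 and Lpl against the library number (horizontal axis), with 1 point per mouse coloured by group; the dotted line lies between libraries 45 and 46. In MD + Veh, Angptl4 is at 40.4 to 56.6 CPM left of the line and at 86.7 and 98.9 CPM right of it.

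Angptl4 was split by library number inside a group. MD + Veh replicates 1 to 3, to the left of the division, stood at 40.4, 56.6 and 53.3 CPM, and replicates 4 and 5, to the right of it, at 98.9 and 86.7 CPM. As a covariate, the division is estimated from these MD + Veh libraries alone. With it the log2 fold changes of Angptl4 turned negative in CD + PE (-0.38, adjusted p = 0.87), in MD + Veh (-0.40, adjusted p = 0.637) and in MD + PE against CD + Veh (-0.25, adjusted p = 0.872). No direction can therefore be given for this gene in those comparisons. Skeletal muscle markers split MD + Veh at the same place. They summed to 2512, 159 and 120 CPM in replicates 1 to 3 and to 14.2 and 2.24 CPM in replicates 4 and 5. The part of muscle in the level of Angptl4 was not tested.

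Across mice of the same group, Angptl4 moved with Apoa5 and against Angptl8. After group means of log2 CPM were subtracted, Pearson's r of Angptl4 and Apoa5 was 0.89 over 19 libraries (permutation within groups, 2-sided, p = 2e-05, adjusted over 28 pairs p = 5.6e-04) and Spearman's rho was 0.90 (p = 5e-05, adjusted p = 0.0014). Without the 2 libraries farthest from the median it was 0.86. Within libraries 39 to 45 (n = 7) r was 0.67 and within libraries 46 to 57 (n = 12) it was 0.95. Leaving out the 3 libraries rich in muscle or Kupffer cell markers gave 0.74 (n = 16).

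Angptl4 and Angptl8 gave r = -0.63 (permutation p = 0.00378, adjusted p = 0.0212) and rho = -0.63 (p = 0.00698, adjusted p = 0.0489). The value was -0.58 without the 2 farthest libraries, -0.84 in libraries 39 to 45, -0.76 in libraries 46 to 57 and -0.50 without the 3 marker-rich libraries. The ratio of Angptl8 to Angptl4 counts shows the range: in CD + Veh it was 4.78, 1.69, 3.16 and 0.53, in CD + PE 2.70, 1.27, 0.21, 0.36 and 0.14, in MD + Veh 1.23, 0.59, 0.51, 0.33 and 0.44, and in MD + PE it was 0.52, 0.41, 0.25, 0.24 and 0.12. Angptl8 and Apoa5 gave r = -0.72 (permutation p = 0.00027, adjusted p = 0.00378) and rho = -0.74 (p = 7e-04, adjusted p = 0.0098), with -0.71 without the 2 farthest, -0.77 and -0.81 in the library divisions and -0.65 without the 3 libraries.

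A further trio moved together, Lipc, Apoc3 and Lmf1. Apoc3 and Lmf1 gave r = 0.73 (permutation p = 0.00049, adjusted p = 0.00457) and rho = 0.74 (p = 0.00114, adjusted p = 0.0106), with 0.78 without the 2 farthest libraries, 0.91 and 0.80 in the library divisions and 0.79 without the 3 libraries. Lipc and Apoc3 gave r = 0.73 (permutation p = 0.00164, adjusted p = 0.0115) and rho = 0.64 (p = 0.00885, adjusted p = 0.0496), with 0.60, then 0.93 and 0.69, then 0.57 in the same order. Lipc and Lmf1 gave r = 0.66 (permutation p = 0.00472, adjusted p = 0.022), but rho of 0.60 did not pass (p = 0.0153, adjusted p = 0.0714). It was 0.57 without the 2 farthest libraries, 0.80 and 0.62 in the divisions and 0.75 without the 3 libraries.

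**Figure D4:**
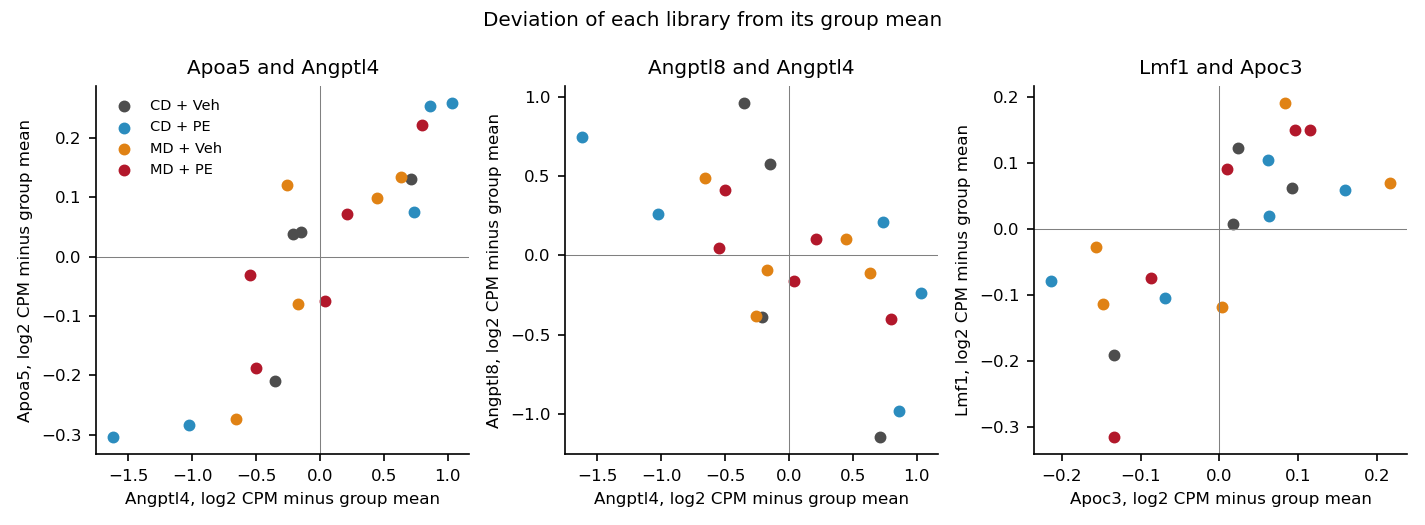
Deviation of each library from its group mean in log2 CPM for Apoa5 and Angptl8 against Angptl4 and for Lmf1 against Apoc3; each point is 1 mouse coloured by group. The 3 clouds have Pearson's r of 0.89, -0.63 and 0.73 over 19 libraries.

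The clock score followed some of these deviations. After group means were subtracted its r over 19 libraries was -0.59 with Angptl4, -0.55 with Apoa5 and -0.44 with Apoc3, given as a description. The value was -0.37 with Lipc, -0.35 with Lipg, 0.33 with Angptl8, -0.08 with Lmf1 and -0.07 with Apoc2. The part of the score in the relations between members was not tested.

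Of the other genes tested, those most like each member after subtraction of group means are named by Pearson's r over 19 libraries, as a description. For Angptl4 they were Lpin2 (0.93), Nfkbia (0.93) and Ip6k2 (0.92), and for Apoa5 Ip6k2 (0.88), Paip2 (0.87) and 4933404O12Rik (0.87). For Angptl8 they were Xpo5 (0.88), Synrg (0.81) and Abca2 (0.80), and without subtraction Mid1ip1 (0.87), Slc30a1 (0.84) and Ptpn3 (0.84). For Lipc they were Cyp2d26, Slc27a5 and Rdh7 (0.91 to 0.92), for Apoc3 Naxd, Etfb and Tmem205 (0.94 each) and for Lmf1 Aup1, Mdh1 and Ttc36 (0.86 to 0.88). For Apoc2 they were Abhd17a, Gpx4 and Neu1 (0.85 to 0.86), and for Lipg Tor1b, Atl2 and Srsf4 (0.78 to 0.81). Angptl4 had 46 genes with r above 0.8, Lipc 96 and Lipg 1.

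The lipase that these factors act on was called higher in both MD groups against CD + Veh. Lpl, lipoprotein lipase, was at 17.4, 17.1, 15.4 and 9.83 CPM in CD + Veh and at 178, 68.0, 69.3, 38.7 and 45.3 CPM in MD + Veh. Every MD + Veh library lay above every CD + Veh library, and the log2 fold change was 2.42 (SE 0.41, adjusted p = 0.000546). The highest value belongs to MD + Veh replicate 1, the library with 2512 CPM of muscle markers. Replicates 2 and 3, next in Lpl, held 159 and 120 CPM of these markers, and replicates 4 and 5 held 14.2 and 2.24 CPM. The part of muscle in the level of Lpl was not tested. In MD + PE the gene stood at 34.9 to 74.0 CPM, 1.60 above CD + Veh on the log2 scale (SE 0.40, adjusted p = 0.00737). Against CD + PE, at 13.1 to 34.4 CPM, it gave 1.12 (SE 0.37, adjusted p = 0.0721) and was not called, although the groups did not overlap.

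The summed adipocyte markers, like Lpl, were higher on MD. They were at 0.201 to 2.94 CPM in CD + Veh and 0.502 to 2.56 CPM in CD + PE. On MD they were at 83.0 to 234 CPM in MD + Veh and 73.5 to 217 CPM in MD + PE. Inside each MD group, the library with the highest Lpl had the lowest sum. These were MD + Veh replicate 1 (Lpl 178 CPM, sum 83.0 CPM) and MD + PE replicate 4 (Lpl 74.0 CPM, sum 73.5 CPM). All 6 markers had counts in CD + PE and MD + Veh and 5 of 6 in the others, where Lep was at 0. On MD the sum was mostly Cfd, at 66.9 to 224 CPM in MD + Veh. Adipoq, the defining adipocyte transcript, was at 4.2 CPM in MD + Veh replicate 1 and below 1 CPM in every other library. Plin1 (3.99 CPM), Lep (3.04 CPM) and Retn (1.33 CPM) were also highest in that library, while Cidea (3.55 CPM) and Cfd were not. The part of these markers in the level of Lpl was not tested.

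Of the 10 genes listed as lipase partners, 3 were called in MD + Veh against CD + Veh (10.4% of all genes), all higher, with a list median log2 fold change of 0.21 beside 0.00 over all genes. Besides Lpl these were Pcsk6, a proprotein convertase (0.61, SE 0.084, adjusted p = 7.5e-05), and Sdc1, the hepatocyte proteoglycan that takes up remnants (0.43, SE 0.085, adjusted p = 0.00182). In MD + PE against CD + PE (4.61% of all genes) 1 was called, Pcsk6 (0.58, adjusted p = 0.000109). In MD + PE against CD + Veh (14.6% of all genes) 2 were called, Lpl and Pcsk6 (0.73, adjusted p = 5e-06). For PE on either diet edgeR's test called 0 of 10, with 0 at an unadjusted p below 0.05 on CD and 3 on MD. Beside this, 2.92% of all genes were called on CD and 1.08% on MD. DESeq2 called 0 of 10 as well, beside 4.15% and 2.23% of all genes. Gpihbp1, which anchors lipoprotein lipase on endothelium, was not called in any comparison.

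Of 13 other apolipoproteins and remnant uptake genes, 1 was called with PE on CD, where 2.92% of all genes were. This was Lsr, the lipolysis stimulated lipoprotein receptor of hepatocytes, which fell by 0.63 on the log2 scale (SE 0.12, adjusted p = 0.00649). It also fell in MD + Veh against CD + Veh by 0.85 (SE 0.12, adjusted p = 0.000103) and in MD + PE against CD + PE by 0.51 (SE 0.11, adjusted p = 0.00985). Apoa1, the main protein of high density lipoproteins, fell by 0.42 in MD + Veh (adjusted p = 0.0106) and by 0.48 in MD + PE against CD + PE (adjusted p = 0.00527). Apoe, a ligand for remnant receptors, rose by 0.52 in MD + Veh (adjusted p = 0.00714). In all, 3 of 13 were called in MD + Veh (10.4% of all genes), 2 in MD + PE against CD + PE (4.61%) and 4 in MD + PE against CD + Veh (14.6%), where Lsr, Apoa1, Apoe and Scarb1 made up the calls.

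Regulators and metabolic genes that accompany these genes in liver were counted in the same way. Of 14 transcriptional regulators, Nr1h4, the bile acid receptor, was called in MD + Veh (-0.53, SE 0.098, adjusted p = 0.00108) and Usf2 in MD + PE against CD + Veh (-0.45, SE 0.068, adjusted p = 0.000108), 1 of 14 each beside 10.4% and 14.6% of all genes. Ppara gave 0.16 with PE on CD (adjusted p = 0.65) and Creb3l3, a regulator of Apoa5 and Apoc2, 0.07 (adjusted p = 0.746). Of 15 targets of PPAR alpha, 3 were higher in CD + PE (among them Cyp4a10 at 2.45 and Acadm at 0.48 on the log2 scale, adjusted p 0.0191 and 0.0422) and 9 in MD + Veh, beside 2.92% and 10.4% of all genes called in either direction. In MD + PE against CD + PE 3 were higher and Fabp1 was lower (-0.43, adjusted p = 0.0344), beside 4.61% of all genes called. In MD + PE against CD + Veh 9 were higher and 1 lower, beside 14.6% of all genes. With PE on MD edgeR called 0, beside 1.08% of all genes, with 5 at an unadjusted p below 0.05. DESeq2 called 1 there, beside 2.23% of all genes. Angptl4, a target of the same receptor, was called in none of these comparisons.

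Of 12 lipogenic genes, 11 were lower with PE on CD and 7 with PE on MD, and 9 were lower in MD + Veh, beside 2.92%, 1.08% and 10.4% of all genes called in either direction. In MD + PE, 8 were lower than in CD + PE and 11 lower than in CD + Veh, beside 4.61% and 14.6% of all genes. The list median was -1.57 with PE on CD, -1.001 with PE on MD and -1.43 in MD + Veh on the log2 scale. Over all genes it was 0.01, -0.01 and 0.00. In CD + PE, Acaca, which makes malonyl-CoA, was at -1.61 (SE 0.18, adjusted p = 0.000159) and Acly, which supplies its acetyl-CoA, at -1.82 (SE 0.24, adjusted p = 0.000663). Angptl8 was lower in the same comparison by a like amount (-1.76). On MD with PE, Acacb gave -2.48 (SE 0.29, adjusted p = 0.000611), where Angptl8 gave -0.43 and was not called. The lists and the 8 genes share the same libraries, and the difference between them was not tested.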

How the data were processed

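Liver RNA of 19 mice was sequenced as poly(A) libraries on 150-base paired reads, and the other assays of the study were not analysed here. The authors trimmed reads with fastp 0.23.4, quantified them with Salmon 1.10.3 on the GENCODE transcriptome of GRCm39 with sequence bias correction, and brought transcript values to gene level with tximport. The deposited table holds estimated counts of the authors, in whole numbers for each gene, without normalization, for 55836 genes and 19 libraries. The GENCODE release was not given in the sources used here.

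Counts were fitted in R 4.3.3 with edgeR 4.0.16: TMM scaling, filterByExpr, 1 coefficient per group over the 19 libraries, the quasi-likelihood F test and Benjamini-Hochberg adjustment over the 13597 genes tested. SE is the log2 fold change divided by the square root of F. A call took an adjusted p under 0.05 with a log2 fold change of 0.38 or more in either direction, as in the study. CPM are TMM-scaled, and log2 CPM used a prior count of 2. The 28 relations between members were tested by 100000 permutations within groups. Groups came from title and treatment labels. Depth was 10398820 to 15456729 counts. P-values measure the spread between these mice. Salmon's division of reads between overlapping genes adds error that the counts do not show.

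Alternatives were DESeq2 1.42.0, RLE scaling, robust dispersion, no or a stricter filter on low counts, no minimum fold change, the 2 groups alone, a replicate block, the division of library numbers, a clock score, and each library left out. Added after seeing the data were fits without 3 libraries, with Apoc2 summed with its overlapping genes, and with libraries 39 to 45 or 46 to 57 only. Replicate numbers did not pair the libraries. The 8 genes, the 5 gene lists, the markers and the motifs were chosen with earlier results of these data known. Named genes were all 8 members, up to 4 called genes per list and comparison by adjusted p, 5 fixed partners and the 3 genes most like each member, except that 1 gene is not reported here. Fits were checked on simulated data, and coordinates are those of GENCODE vM39.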

Additional observations from a re-analysis of the deposited data

Results flagged for a closer look

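Of 32 sets of a gene and a group examined for a single library far from the rest, 2 were marked, where chance marks about 1 in 20. Angptl4 in CD + Veh replicate 4 was at 103.3 CPM, while the other libraries of that group were at 49.2 to 56.97 CPM. Lipc in CD + PE replicate 2 was at 116.7 CPM, while the other libraries of that group were at 149.1 to 160.9 CPM. The latter is the library with 614 CPM of Kupffer cell markers. The part of either library's makeup in these values was not tested.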

How the results depend on the processing

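The counts of members called kept within 1.5 times their main value under RLE scaling, DESeq2, a stricter filter and robust dispersion in all 6 comparisons. With only the 2 groups compared, 0 members were called for PE on CD, 0 for PE on MD and 0 for MD among PE mice. In these fits 2.26%, 0.567% and 3.59% of all genes were called. With the division of library numbers as a covariate, 0 were called with PE on CD, 0 with PE on MD and 3 for the combined exposure (MD + PE against CD + Veh), where 0.272%, 0.243% and 6.84% of all genes were called. That covariate rests on the split of MD + Veh alone. With the clock score, 1 was called for MD among vehicle mice, 0 for MD among PE mice and 3 for the combined exposure, beside 2.94%, 4.19% and 9.09% of all genes. The count for MD among PE mice also fell to 0 without the filter (2.04% of all genes called) and with the replicate block (4.46%). It was 0 as well with Apoc2 summed with Apoc2l (4.6%) or with Apoc2l and Apoc4 (4.61%), and with libraries 46 to 57 only (3.5%). It rose to 3 without a minimum fold change (7.09%). With libraries 46 to 57 only, PE on MD had 0, beside 0.132% of all genes. The cause was not tested.

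With 1 library left out, the count ran from 0 to 1 for PE on MD and for MD among PE mice, beside 0.411% to 1.79% and 3.7% to 7.25% of all genes. It ran from 2 to 4 for MD among vehicle mice (7.37% to 12.1%). It stayed at 1 for PE on CD (1.55% to 3.14%), 5 for the combined exposure (11.7% to 16%) and 0 for the interaction (0% to 0.0217%). The log2 fold change changed sign in Lipg (-0.30 to 0.10) and Apoa5 (-0.044 to 0.060) for PE on MD, in Angptl4 (-0.16 to 0.34) and Lipc (-0.034 to 0.071) for MD among vehicle mice, in Angptl4 for MD among PE mice (-0.12 to 0.38), and in Angptl4 (-0.19 to 0.35) and Lmf1 (-0.077 to 0.031) for the interaction. None of these was called in the first place.

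Other settings turned the sign of members that were not called. Angptl4 became -0.38, -0.40 and -0.25 with the division for PE on CD, MD among vehicle mice and the combined exposure, -0.15 with the block and -0.39 with libraries 39 to 45 for MD among vehicle mice, and -0.39 without the 3 marker-rich libraries for MD among PE mice. Its interaction became -0.93 with the clock score and -0.57 without those 3. Apoa5 for PE on MD became -0.093 with the division, -0.0046 with the clock score, -0.040 without those 3 and -0.078 with libraries 46 to 57, and it became 0.19 with the clock score both for MD among vehicle mice and for the combined exposure. Apoc2 for PE on MD became 0.020 with the division and 0.036 with libraries 46 to 57. For MD among vehicle mice, Lipc became -0.011 with the division and -0.0026 with libraries 39 to 45, and Apoc3 0.079 with the clock score.

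Shared replicate numbers did not pair the libraries: of 27 pairs with the same number, 6 had a correlation of deviations above 0.1 (median 0.03). The replicate block ended the call of Apoc2 in MD + PE against CD + PE (0.53, adjusted p = 0.055) and changed no other call of a member. Depth was lower in all PE libraries, and no fit at matched depth was made.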
